A study of Mus musculus with 35 samples.

Results

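Myc and 38 genes of ribosome biogenesis were followed in CD8 T cells that differed in Dot1l. The genes were chosen by name, and every row of the count table whose Ensembl identifier maps to 1 of the 39 symbols was taken. All 39 were found among 52636 genes in the table, and all 39 were among the 10296 genes with enough counts to be tested. RNA was sequenced from sorted CD8 T cells of C57BL/6 mice of 3 genotypes, which all carried a Cre transgene in 1 copy (Lcre+/-). KO libraries came from Dot1L fl/fl mice, Het libraries from Dot1L fl/wt mice and WT libraries from Dot1L wt/wt mice, so the WT cells carry Cre as well. The labels do not name the promoter of the Cre transgene. Each genotype was sampled in 3 subsets, which were thymus CD8 single positive cells, spleen naive cells (CD44-, CD62L+) and spleen memory cells (CD44+, CD62L+), with 4 libraries in each of the 9 groups except WT thymus, which had 3.

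Ribosomes are built in the nucleolus. RNA polymerase I transcribes the ribosomal RNA precursor, small nucleolar ribonucleoproteins (snoRNPs) guide its chemical modification, and a large set of assembly factors folds and cuts it into the RNAs of the small and the large subunit. The transcription factor Myc, with its partner Max, binds the E-box sequence CACGTG and is known as an activator of many of these genes, and in T cells it is induced by antigen and cytokines when cells start to grow. Dot1l encodes a methyltransferase of histone H3 that acts on the bodies of transcribed genes.

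Depth was 4809509 to 16879636 counts per library (median 10406516). Dot1l itself (gene counts over all exons) was at 74.9 to 78.8 CPM (counts scaled to library size) in KO, 62.7 to 72.4 in Het and 61.1 to 70.4 in WT thymus libraries, and the adjusted p of KO against WT (edgeR) was 0.0891 for thymus, 0.163 for naive and 0.961 for memory libraries. The labels do not give the floxed part, so these counts do not check the deletion, and directions refer to the libraries as they are labelled KO. All 10 CD8 T cell marker genes had counts in every group, with sums of 1190 to 1660 CPM over all libraries. Counts of the myeloid list summed to at most 11.5 CPM, of natural killer genes to at most 8.46 CPM and of CD4 T cell genes to at most 25.0 CPM. B cell genes summed to 11.2 to 210 CPM in KO naive and 12.1 to 86.8 CPM in WT naive libraries. In memory libraries they summed to 10.5 to 59.7 CPM in KO, 7.74 to 78.8 CPM in Het and 13.4 to 126 CPM in WT. Erythroid genes summed to at most 5.23 CPM in thymus libraries and to as much as 83.2 CPM in spleen libraries (Het naive). Xist and Y-linked transcripts marked 24 libraries as male and 11 as female. In every KO and Het group only the library numbered 3 was female. In WT the female libraries were replicate 2 in thymus and replicates 2 and 3 in both naive and memory cells. Sex was thus not balanced between KO and WT spleen libraries. In bulk samples, fewer cells of a type and less RNA per cell cannot be told apart. Levels below are CPM scaled by trimmed mean of M values (TMM), and log2 fold changes are given ± standard error. "Higher" or "lower" calls are those with an adjusted p under 0.05 in edgeR's quasi-likelihood test with Benjamini-Hochberg adjustment over all tested genes. The defining marker Cd8a was at only 5.02 to 11.3 CPM as a group mean, so levels in this table are compared between groups and not between genes. Levels by library of Gar1, Wdr12, and Nop58, Ncl and Nap1l1 in Het thymus were chosen after they were seen.

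Myc (chr15:61985391-61990374, plus strand, GRCm38) was called in none of the 17 comparisons. In thymus it was at 73.1, 110.5, 58.7 and 77.7 CPM in KO, 75.5, 89.5, 72.1 and 69.8 CPM in Het and 97.3, 63.3 and 80.7 CPM in WT libraries. The KO libraries spanned the range of both other genotypes, and the KO against WT log2 fold change was 0.00 ± 0.19 (adjusted p = 1). In naive cells it was at 70.7, 81.0, 53.2 and 62.3 CPM in KO, 91.8, 84.4, 66.9 and 82.5 CPM in Het and 95.1, 66.4, 76.8 and 84.7 CPM in WT libraries. In memory cells it was at 89.3, 102, 57.5 and 76.7 CPM in KO, 108, 114, 89.8 and 83.85 CPM in Het and 105, 97.4, 96.7 and 98.0 CPM in WT libraries. Means of both KO spleen groups lay below those of WT with overlapping ranges, at a log2 fold change of -0.27 ± 0.18 in naive (adjusted p = 0.363) and -0.29 ± 0.175 in memory cells (adjusted p = 0.282, edgeR). KO replicate 3, a female library, was the lowest KO library in each subset. With sex as a covariate Myc was called lower in KO than in WT cells, at -0.36 in naive (adjusted p = 0.0468) and -0.39 in memory cells (adjusted p = 0.0208), but not with male libraries alone. Over the other alternatives tried, the adjusted p of Myc in these 2 comparisons reached 0.617 and 0.606.

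**Figure D1:**
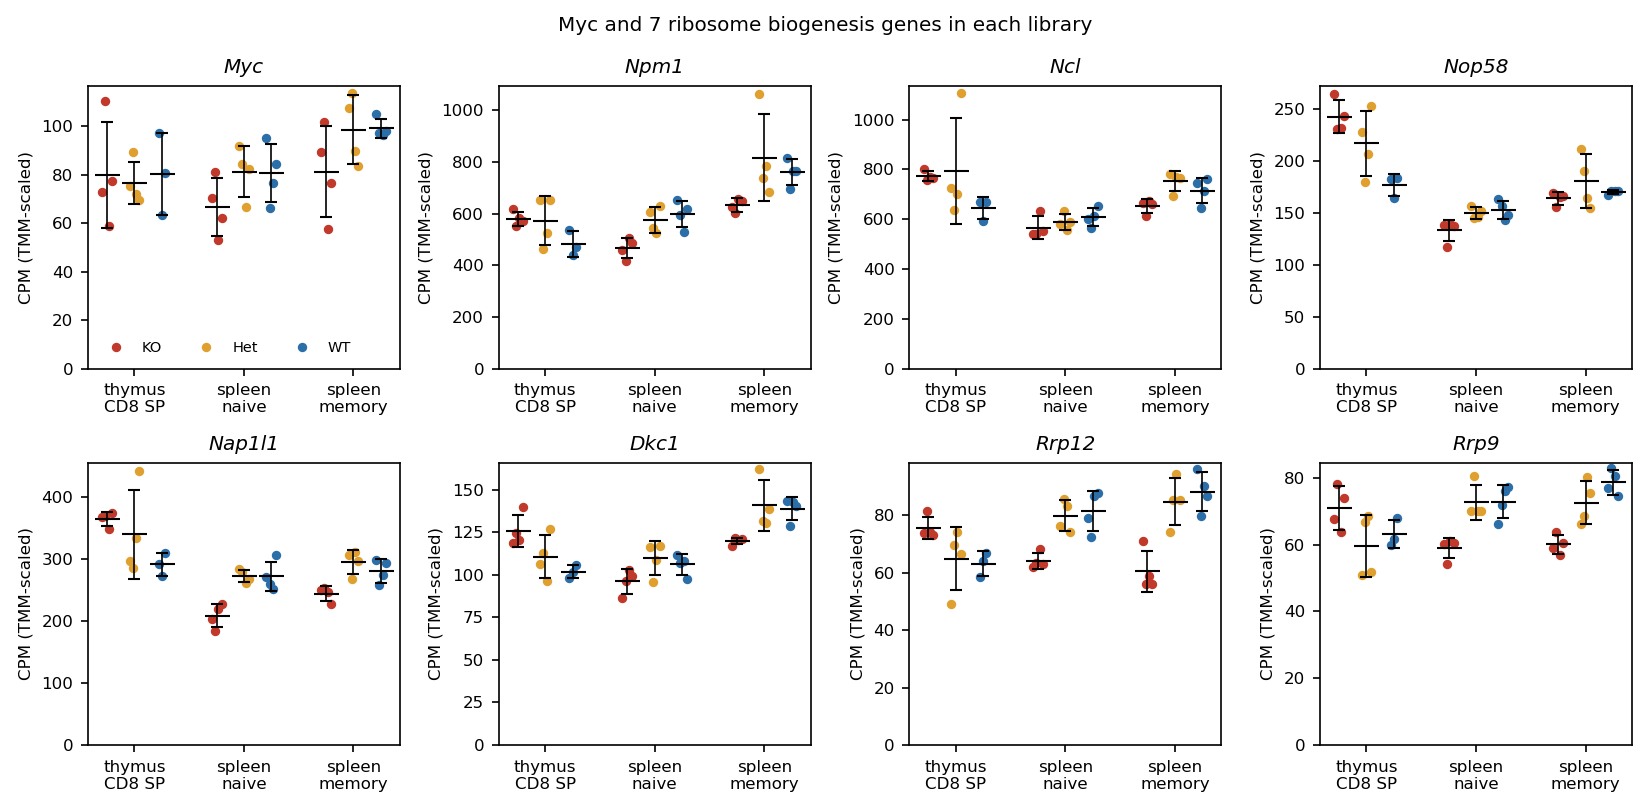
Level of Myc and 7 ribosome biogenesis genes in CPM (vertical axis) in each library (points), by subset and genotype, with the mean and SD of each group in black. Nop58, Nap1l1 and Dkc1 sit higher in KO than in WT thymus, and Rrp12 and Rrp9 sit lower in KO than in WT memory libraries, while the Myc points of KO and WT overlap in every subset.

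Promoter sequences were examined because the E-box is the site Myc is known for. RefSeq windows of 300 bases on GRCm38.p6 (250 before to 50 after the annotated start) covered 34 of the 39 genes, and Myc, Npm1, Fbl, Rrp12 and Bop1 had none. The motif CACGTG reads the same on both strands. In the 250 bases before the start 1 of 34 genes (2.9%) held it, against 10.1% of the 7808 tested genes with a window. In the 50 bases after the start 7 of 34 (20.6%) held it, against 1.9% of tested genes, and in 59 other ribosome biogenesis factors with a window 5 (8.5%) did. The 8 sites follow in 30 bases each, read along the gene's strand, with the E-box in capitals and the others in lower case, since they are the only places where these windows carry the letters.

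Pes1 (chr11:3963965-3963994, plus strand): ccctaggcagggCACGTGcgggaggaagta
Wdr43 (chr17:71616220-71616249, plus strand): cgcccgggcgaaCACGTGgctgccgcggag
Tsr1 (chr11:74898092-74898121, plus strand): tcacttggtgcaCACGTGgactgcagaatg
Ltv1 (chr10:13193092-13193121, minus strand): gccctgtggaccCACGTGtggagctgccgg
Grwd1 (chr7:45830740-45830769, minus strand): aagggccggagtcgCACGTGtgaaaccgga
Utp20 (chr10:88826765-88826794, minus strand): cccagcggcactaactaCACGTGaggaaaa
Mybbp1a (chr11:72441347-72441376, plus strand): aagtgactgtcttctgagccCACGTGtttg
Nop2 (chr6:125131811-125131840, plus strand): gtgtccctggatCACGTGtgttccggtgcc

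The first base of the E-box was base 3 after the start in Pes1, 18 in Wdr43, 25 in Tsr1, 29 in Ltv1, 35 in Grwd1, 38 in Utp20 and 41 in Mybbp1a. In Nop2, which encodes an rRNA methyltransferase, it lay 60 bases before the start. Of the members called in at least 1 KO against WT comparison 3 of 16 with a window held a site anywhere in it (18.8%), and of those called in none 5 of 18 did (27.8%). Before and after refer to the RefSeq start, which can differ from the start of the gene positions given here, taken from GENCODE M21. That of Rrp9 lies inside the gene as GENCODE places it (chr9:106475963-106485424), as does that of Wdr43 (chr17:71615895-71659031). Those of Grwd1, Ltv1, Tsr1 and Nap1l1 lie inside their genes too, by fewer bases. The 250 bases before the RefSeq start are shown for 2 members with a window. These members come first by number of KO against WT calls and then by adjusted p. Neither stretch holds CACGTG, and each is in lower case throughout. GC content was 63.6% for Rrp9 and 64.4% for Nap1l1.

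Rrp9 (chr9:106477059-106477308, plus strand): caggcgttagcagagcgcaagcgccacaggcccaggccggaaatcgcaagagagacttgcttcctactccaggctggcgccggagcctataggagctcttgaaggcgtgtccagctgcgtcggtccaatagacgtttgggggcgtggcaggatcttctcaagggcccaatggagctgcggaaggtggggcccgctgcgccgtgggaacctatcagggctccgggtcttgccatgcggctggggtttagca
Nap1l1 (chr10:111472977-111473226, plus strand): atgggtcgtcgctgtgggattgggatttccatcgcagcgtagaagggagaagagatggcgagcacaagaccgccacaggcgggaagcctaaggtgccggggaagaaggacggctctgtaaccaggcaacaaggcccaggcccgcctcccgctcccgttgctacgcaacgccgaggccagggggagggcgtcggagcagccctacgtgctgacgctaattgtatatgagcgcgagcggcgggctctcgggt

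In thymus CD8 single positive cells the median log2 fold change of KO against WT was 0.17 over the 39 genes and 0.0188 over all tested genes. Of the 39, 4 were called higher (10.3%) and 0 lower, and of all tested genes 11.9% were called higher and 6.77% lower. The share called higher is thus near that of all genes. The sign was positive in 37 of 39, from -0.06 for Nob1 to 0.46 for Nop58. Nop58 (chr1:59684971-59719044), a core protein of the box C/D snoRNPs that guide ribose methylation, was at 265, 231, 231.5 and 244 CPM in KO and 183, 164 and 183 CPM in WT libraries. Every KO library lay above every WT library, and the log2 fold change was 0.46 ± 0.09 (adjusted p = 0.000141). Dkc1 (chrX:75095854-75109777), the pseudouridine synthase of the box H/ACA snoRNPs, was at 119, 124.5, 121 and 139.7 CPM in KO and 98.0, 102 and 106 CPM in WT libraries, again without overlap. It rose by 0.31 ± 0.08 (adjusted p = 0.00725), and with mean log centring (every library centred on its mean log level in place of TMM) it was not called (adjusted p = 0.115). Nap1l1 (chr10:111473223-111498150), a histone chaperone, was at 369, 369, 348.5 and 374 CPM in KO and 293, 273 and 310 CPM in WT libraries. It rose by 0.32 ± 0.09 (adjusted p = 0.0111), and without WT replicate 2, with male libraries alone or with mean log centring it was not called (highest adjusted p = 0.114). Mybbp1a, a nucleolar Myb-binding protein, rose by 0.32 ± 0.11 (adjusted p = 0.042). Without WT replicate 2 the count was 2.

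Both large nucleolar phosphoproteins of the set had higher means in KO thymus without a call. Npm1 (nucleophosmin, chr11:33152287-33163206) was at 616, 550.3, 582 and 573 CPM in KO and 538, 438 and 471 CPM in WT libraries (0.27 ± 0.12, adjusted p = 0.112). Ncl (nucleolin, chr1:86344719-86359400) was at 803, 759, 769 and 765 CPM in KO and 671, 592 and 668 CPM in WT libraries (0.27 ± 0.10, adjusted p = 0.0763). The KO values did not overlap with the WT values for either gene. Both were called higher when the fit held the compared libraries alone and with the replicate block. Among the 35 genes not called, Grwd1, a WD repeat protein of ribosome assembly, had the highest log2 fold change (0.39 ± 0.15, adjusted p = 0.0621). Proliferation genes moved with the thymus comparison, with 15 of 21 tested genes called higher in KO libraries, 0 lower, and summed levels of 2910 to 3530 CPM in KO and 1590 to 2100 CPM in WT libraries. Some heat shock genes did so too, with Hspd1, Hsp90aa1, Hspe1 and Hspa8 called higher among 11 handling and stress genes and Junb lower. Other heat shock genes of that list did not, with thymus means of 7.65 CPM in KO and 8.46 CPM in WT for Hspa1a. Those of Hspa1b were 14.2 and 17.9 CPM, and those of Dnajb1 85.3 and 83.1 CPM. The 8 immature thymocyte genes summed to 105 to 132 CPM in KO and 214 to 240 CPM in WT thymus libraries. Of 6 memory marker genes 4 were called higher in KO thymus, with sums of 69.0 to 91.5 CPM in KO and 18.5 to 26.8 CPM in WT libraries. The part of these in the differences above was not tested.

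In naive cells of the spleen the calls pointed down. Of the 39 genes, 8 were called lower (20.5%) and 0 higher, against 7.11% of all tested genes lower and 11.1% higher. The median over the 39 was -0.18 on the log2 scale, against 0.003 over all genes, and 33 of 39 had a negative sign. Nap1l1, higher in KO thymus, was at 204, 185, 219 and 228 CPM in KO and 271, 259.9, 253 and 306 CPM in WT naive libraries. It fell by 0.38 ± 0.09 on the log2 scale (adjusted p = 0.00107), with no overlap. Rrp12 (chr19:41862851-41896173), a HEAT repeat protein of late small subunit maturation, was at 62.0, 63.5, 68.3 and 62.9 CPM in KO and 79.0, 72.6, 86.5 and 87.8 CPM in WT libraries. All KO values lay below all WT values (-0.35 ± 0.09, adjusted p = 0.0062). Nop56 (chr2:130274430-130279313), a partner of Nop58 in the box C/D snoRNPs, was at 116, 113, 118 and 120.2 CPM in KO and 140.1, 151, 127 and 138 CPM in WT libraries. It fell by 0.25 ± 0.07 (adjusted p = 0.00621), and with male libraries alone it was not called.

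Npm1 was at 458, 417, 504 and 487 CPM in KO and 654, 596, 529.7 and 616 CPM in WT naive libraries. It fell by 0.36 ± 0.11 (adjusted p = 0.0149), without overlap, but without WT replicate 1 or without KO replicate 2 it missed the threshold (highest adjusted p = 0.0585). Ncl did not pass, at 539, 540.2, 633 and 552 CPM in KO and 602, 564, 612 and 655 CPM in WT libraries (-0.10 ± 0.10, adjusted p = 0.551). The other called members were Rrp9, a protein of the snoRNP that takes part in small subunit processing (-0.31 ± 0.09), Rcl1, a factor of the same processing (-0.33 ± 0.11), Fbl, the box C/D ribose methyltransferase fibrillarin (-0.28 ± 0.10), and Utp20, a large scaffold of the small subunit processome (-0.31 ± 0.11). KO and WT libraries overlapped for Rcl1, Fbl and Utp20 and not for Rrp9. Genes not called ran from Rrp1b (-0.34) to Nop16 (0.15). No member of the PeBoW complex (Pes1, Bop1 and Wdr12, which act on the large subunit) or of the RNA polymerase I subunits was called in naive cells. Without WT replicate 1 or WT replicate 3 the count was 5 each. Of the 6 memory marker genes 5 were called higher in KO naive cells, with sums of 194 to 360 CPM in KO and 72.7 to 105 CPM in WT libraries, and B cell genes as given above, and their part in the result was not tested.

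In memory cells of the spleen 14 of the 39 genes were called lower in KO than in WT libraries (35.9%) and 0 higher, against 9.32% of all tested genes lower and 12.8% higher, and 38 of 39 had a negative sign (median -0.23, against 0.007 over all genes). Rrp12 was at 71.0, 56.1, 59.0 and 56.0 CPM in KO and 96.0, 79.8, 90.1 and 86.6 CPM in WT libraries. It had the lowest log2 fold change of the set, -0.54 ± 0.09 (adjusted p = 1.73e-05), and all KO values lay below all WT values. Wdr43 (chr17:71615895-71659031), a subunit of the small subunit processome, was at 111, 102, 102 and 109 CPM in KO and 128, 133.5, 129.5 and 136 CPM in WT libraries (-0.32 ± 0.07, adjusted p = 0.000407). Rrp9 (chr9:106475963-106485424) was at 58.9, 63.8, 56.9 and 60.6 CPM in KO and 76.9, 82.9, 80.55 and 74.5 CPM in WT libraries (-0.39 ± 0.09, adjusted p = 0.000505), and with male libraries alone it was not called. Neither overlapped between KO and WT.

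By role, the memory calls covered transcription, modification and both subunits. Polr1b, the second largest subunit of RNA polymerase I, fell by 0.36 ± 0.08, while Polr1a, the largest, was at -0.15 and Polr1c, which RNA polymerase III shares, at -0.05 without a call. Of the nucleolar scaffolds Nolc1, which binds snoRNPs, fell by 0.23 ± 0.08. Npm1 was at 624, 602, 658.5 and 649 CPM in KO and 816.5, 694, 767 and 766 CPM in WT libraries, without overlap and without a call (-0.27 ± 0.11, adjusted p = 0.0725). It was called lower with mean log centring, when the fit held the compared libraries alone and with the replicate block (lowest adjusted p = 9.02e-05). Ncl was at 664, 613, 674 and 661 CPM in KO and 744.5, 643, 712 and 760.0 CPM in WT libraries (-0.13 ± 0.10, adjusted p = 0.398), and the groups overlapped. With mean log centring and with the replicate block Ncl was called lower too (lowest adjusted p = 0.0347). Fbl (-0.33 ± 0.09) and Dkc1 (-0.21 ± 0.08) fell among the snoRNP proteins, where Nop56 (-0.16) and Nop58 (-0.05) did not pass. Besides Rrp9 and Wdr43, the small subunit processome gave Rcl1 (-0.37 ± 0.10) and Utp20 (-0.34 ± 0.11). Nob1, the endonuclease that makes the last cut of small subunit rRNA, fell by 0.23 ± 0.08. Among large subunit and other nucleolar factors Ddx21, an RNA helicase, fell by 0.23 ± 0.08, Mrto4 by 0.30 ± 0.10, Noc2l by 0.21 ± 0.08 and Wdr12 by 0.28 ± 0.10.

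Without WT replicate 1 or WT replicate 3 the memory count was 9 each, without KO replicate 1 it was 8, and with male libraries alone 2 (Rrp12 and Wdr43 stayed called). With the replicate number as a block it was 22, although equally numbered libraries did not all deviate together in this comparison. That block called 1266 of all 10296 tested genes lower, against 960 without it. With male libraries alone the thymus count was 2 and the naive count 3. Over all tested genes male libraries alone gave 822 higher in thymus, 364 lower in naive and 531 lower in memory cells. Noc2l shares 598 exon bases with Samd11 and Tsr1 1240 with Srr, both on the opposite strand, and whether the counting used the strand was not given in the sources used here. Proliferation genes were higher in KO memory libraries (8 of 21 tested, sums of 777 to 830 CPM in KO and 471 to 617 CPM in WT libraries). Of the 6 memory marker genes 2 were called higher in KO memory cells, with sums of 573 to 644 CPM in KO and 382 to 452 CPM in WT libraries, with 2 of 6 naive cell genes (Lef1 and Ccr7) lower, at sums of 1960 to 2220 CPM in KO and 2050 to 2470 CPM in WT libraries. Of the 10 CD8 T cell genes 4 (Cd247, Zap70, Cd8a and Cd8b1) were called lower in KO memory cells and 0 higher, with a median of -0.265 and sums of 1240 to 1500 CPM in KO and 1430 to 1570 CPM in WT libraries. In thymus 2 of these 10 were lower and in naive cells 1. The CD4 T cell list summed to 13.5 to 25.0 CPM in KO and 5.17 to 6.21 CPM in WT memory libraries, and Zbtb7b, a transcription factor of CD4 T cells, was called higher, at a mean of 18.3 CPM in KO and 5.55 CPM in WT libraries, while Cd4 was at 0 in both. The part of any of these lists in the memory result was not tested.

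Over the 3 subsets 19 of the 39 genes were called in at least 1 and 20 in none, where 35.5% of all tested genes were called in at least 1. Of the 39, 5 (Fbl, Rrp9, Utp20, Rcl1 and Rrp12) were lower in both spleen subsets, against 4.79% of all tested genes. Nap1l1 was higher in thymus and lower in naive cells (0.291% of all tested genes), and Dkc1 was higher in thymus and lower in memory cells (0.515%).

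**Figure D2:**
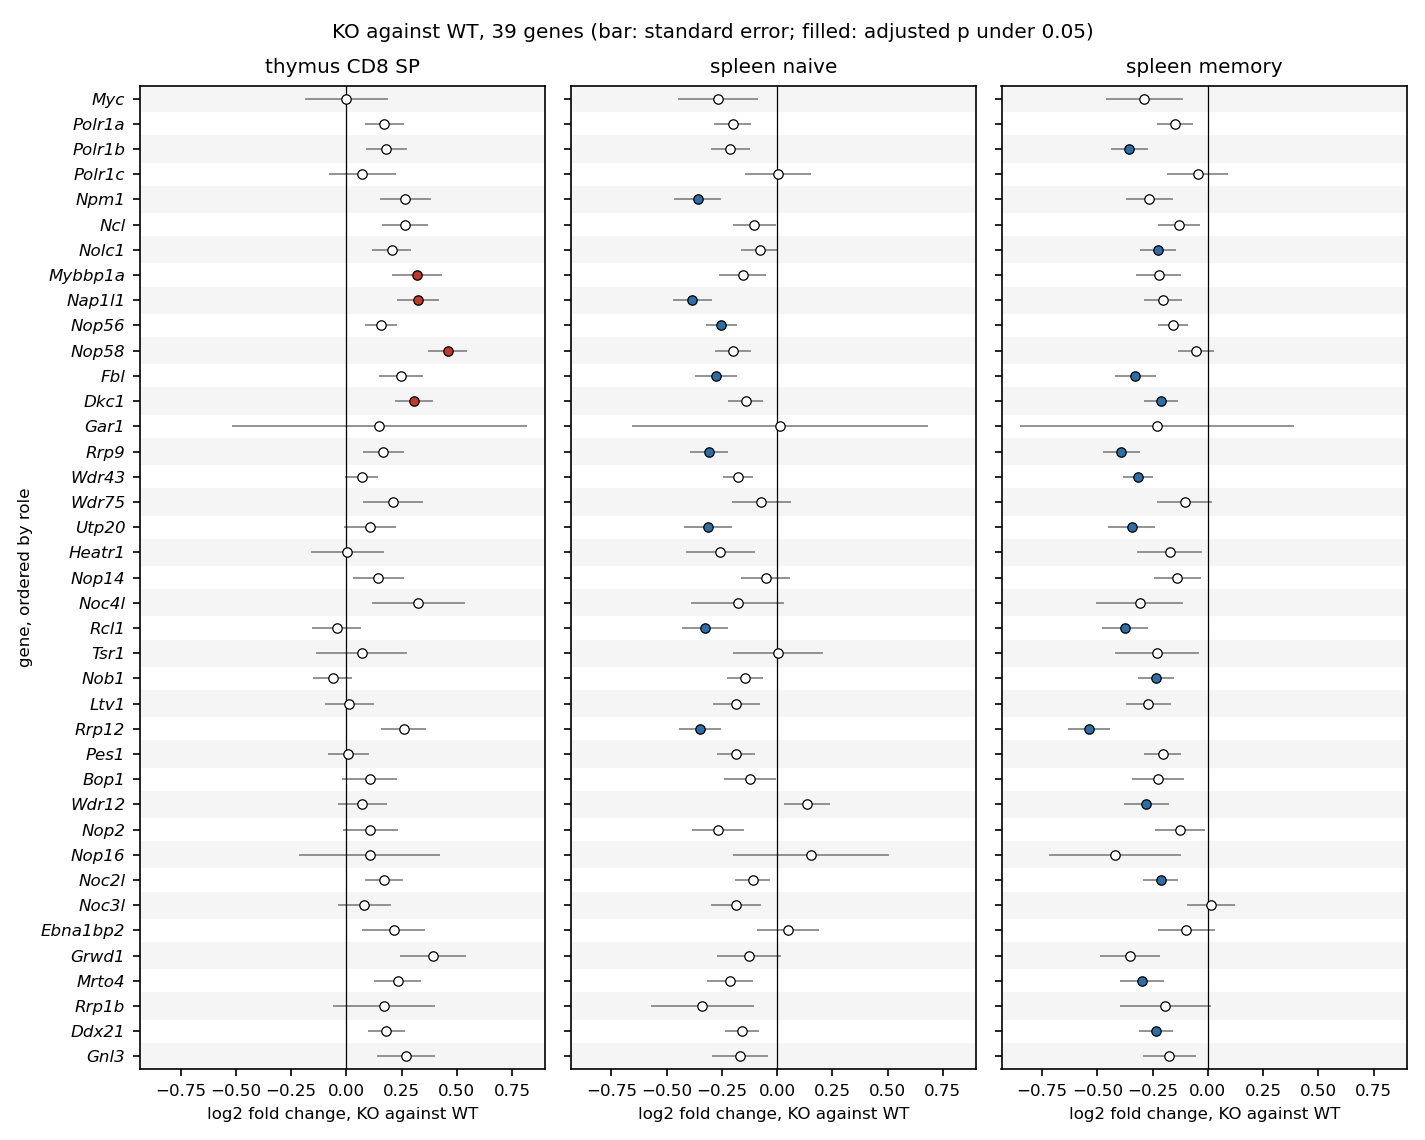
Log2 fold change of KO against WT libraries (horizontal axis) for each of the 39 genes (rows, ordered by role) in 3 subsets, with bars of 1 standard error; red points are called higher and blue points lower. The points lie mostly right of 0 in thymus (4 called higher) and left of 0 in naive (8 called lower) and memory cells (14 called lower).

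The counts of calls moved with the scaling of the libraries. Centring every library on its mean log level moved the median of all genes by -0.111 in thymus cells, -0.128 in naive cells and -0.125 in memory cells, and over all genes the share of calls that were higher was 38.6%, 33.1% and 34.0%, against 63.7%, 61.0% and 58.0% with TMM. Under that centring 1 member was called higher in thymus, 22 were called lower in naive and 24 in memory cells. Of all 10296 tested genes it called 876 higher in thymus, against 1222 with TMM. It called 1756 lower in naive and 1952 lower in memory cells, against 732 and 960 with TMM, so calls rose over all genes too. With centring, the median of the 39 minus that of all genes was 0.148 for thymus, -0.184 for naive and -0.233 for memory cells, against 0.151, -0.182 and -0.232 with TMM.

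For 8 of the 39 genes the KO effect differed between naive and thymus cells. The interaction term (the naive KO against WT difference minus the thymus one) was negative for 37 of 39 genes, with a median of -0.34 and 8 called lower (20.5%) and 0 higher, against 3.33% and 3.01% of all tested genes. Nap1l1 had the lowest value, -0.71 ± 0.13 (adjusted p = 0.000366), followed by Nop58 at -0.66 ± 0.12 (adjusted p = 0.000415), Npm1 at -0.63 ± 0.16 and Rrp12 at -0.61 ± 0.14. Fbl (-0.52 ± 0.14), Rrp9 (-0.47 ± 0.13), Dkc1 (-0.45 ± 0.12) and Nop56 (-0.41 ± 0.10) completed them, so that all 3 box C/D core proteins were among the 8. The value of Myc was -0.27 ± 0.26 (adjusted p = 0.655). DESeq2 and the replicate block called 13 members lower each, and male libraries alone 3. Of all 10296 tested genes these settings called 403, 420 and 117 lower, against 343 in the edgeR fit of all libraries. Between memory and naive cells the KO effect differed for 0 of 39 genes in edgeR, where 1.12% of all tested genes were called lower and 0.67% higher. DESeq2 also called 0 of them, 1 (Wdr12) had an unadjusted p under 0.05, and without KO naive replicate 1 the edgeR count was 1.

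The KO comparison was repeated against Het libraries. The KO libraries are the same as those used against WT, so these are not independent comparisons. In naive cells 8 of 39 were called lower and 0 higher (6.5% and 10.5% of all tested genes), and in memory cells 17 lower and 0 higher (8.59% and 11.6%). Medians were -0.15 in naive and -0.25 in memory cells. Equally numbered KO and Het naive libraries deviated together (every correlation at least 0.144). With the replicate number as a block 828 of all 10296 tested genes were called lower in naive cells, against 669 without it. Of the members 11 were then called lower. Without KO naive replicate 2 or Het naive replicate 1 or 2 the naive count was 5 each, and without Het memory replicate 1 the memory count was 11. The lowest adjusted p in memory cells were those of Utp20 at -0.55 ± 0.11, Wdr12 at -0.53 ± 0.10 and Rrp12 at -0.48 ± 0.09. Wdr12 stood at 25.7, 29.6, 25.5 and 25.8 CPM in KO, 33.8, 31.1, 44.0 and 44.5 CPM in Het and 34.2, 30.6, 28.75 and 35.5 CPM in WT memory libraries. The Het libraries thus split into a low and a high pair. In thymus 6 were called higher and 1 lower (11.9% and 7.28% of all tested genes), among them Noc2l (0.37 ± 0.08), Polr1b (0.27 ± 0.09) and Nolc1 (0.25 ± 0.08). The thymus median was 0.106 with TMM and -0.00607 with mean log centring. With that centring 1 member was called higher and 1 lower in thymus. In both spleen subsets 0 were higher, with 19 lower in naive and 28 in memory cells. Of all 10296 tested genes 1706 were lower in naive and 2076 in memory cells, against 669 and 884 with TMM. In thymus centring called 855 of all genes higher and 1607 lower. Over all genes the share of calls against Het that were higher was then 34.7%, 33.3% and 30.7% in the 3 subsets, against 61.9%, 61.7% and 57.5% with TMM.

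The member called lower in that comparison, Gar1, a box H/ACA protein, rests on 1 library. It was at 1.93, 2.22, 1.44 and 1.99 CPM in KO and 2.08, 1.60, 1.75 and 21.5 CPM in Het thymus libraries, and its counts ran from 6 to 245 over all libraries with a median of 19. Without Het replicate 4 Gar1 was not called and the count of members was 8, all higher. Without Het replicate 1 the thymus count of members called against Het was 2, and without KO replicate 2 or KO replicate 4 it was 3 each. Nop58, Dkc1, Nap1l1 and Mybbp1a, the members higher in KO than in WT thymus, were not called against Het. Het thymus values of Nop58 were 228, 179, 207 and 253 CPM, overlapping both the KO and the WT values given above. Het replicate 4 also had the highest Ncl and Nap1l1 levels of all thymus libraries, 1106 and 443.5 CPM.

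Het against WT gave 0 members called in either direction in all 3 subsets, with medians of 0.06 in thymus cells, -0.01 in naive cells and 0.03 in memory cells. Over all tested genes edgeR called 0% in either direction for thymus and naive cells, and for memory cells 0.00971% higher (1 gene) and 0% lower. DESeq2 called 0 members as well. At an unadjusted p under 0.05 edgeR gave 6 members in thymus, 0 in naive and 1 (Wdr12) in memory cells. In thymus the lowest was that of Nop58, at 0.30 ± 0.09 (edgeR adjusted p = 0.739).

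Gene lists around the 39 were counted in the same way, and their counts stand beside the shares of all tested genes given above (lower in 6.77% for thymus, 7.11% for naive and 9.32% for memory cells). Of 66 tested other ribosome biogenesis factors, 8 were called lower in KO than in WT naive cells and 11 in memory cells, with 0 higher in each, and 1 (Nat10, an RNA acetyltransferase, 0.26 ± 0.06) was higher and 0 lower in thymus. Their medians were 0.08 in thymus, where mean log centring gave -0.03, -0.13 in naive and -0.15 in memory cells. Mdn1, the giant ATPase of large subunit assembly, was at -0.29 ± 0.07 in naive and -0.39 ± 0.07 in memory cells, and Bysl, a small subunit factor, at -0.44 ± 0.12 and -0.52 ± 0.11. Cytosolic ribosomal protein genes had the lowest medians, -0.39 in naive cells with 49 of 78 called lower and -0.35 in memory cells with 46 called lower, and 0 were called higher in either. In thymus 1 of 78 was called lower and the median was -0.11. Rplp0, a stalk protein, was at -0.48 ± 0.08 in naive and -0.49 ± 0.08 in memory cells. Many ribosomal protein genes have near-identical processed copies, so their single values are uncertain.

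Of 8 tested RNA polymerase I factors outside the 39, edgeR called 0 in any KO against WT comparison, with 0 in thymus, 1 (Rrn3) in naive and 1 (Polr1d) in memory cells at an unadjusted p under 0.05. Of 19 tested RNA polymerase III factors, 1 was lower in thymus cells, 2 in naive cells and 3 in memory cells, among them Polr3e at -0.23 ± 0.08 in naive and -0.26 ± 0.08 in memory cells and Polr3d at -0.50 ± 0.12 in memory cells. These counts lie near the shares of all genes, and the medians of the list were -0.00288, 0.00256 and 0.0633 in the same order. Of 20 tested growth genes often described as Myc targets, 11 were higher and 1 lower in KO than in WT thymus, 1 higher and 4 lower in KO naive cells, and 0 higher and 7 lower in KO memory cells. Mthfd2, a mitochondrial folate enzyme, was called in each subset, at 0.70 ± 0.16 in thymus cells, -0.65 ± 0.16 in naive cells and -0.99 ± 0.17 in memory cells. Rcc1, the nucleotide exchange factor of Ran (0.64 ± 0.12), and Eif5a, a translation factor (0.28 ± 0.07), rose in thymus. Pa2g4, a nucleolar growth regulator, was at -0.26 ± 0.07 in naive and -0.27 ± 0.07 in memory cells, Phb, prohibitin, fell in memory cells (-0.41 ± 0.11), and Tfrc, the transferrin receptor, rose in naive cells (0.415 ± 0.13). With mean log centring 3 of these growth genes were called higher and 1 lower in thymus.

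Of 12 tested genes of the Myc network itself few were called. Fbxw7, the ubiquitin ligase subunit that marks Myc for degradation, rose by 0.34 ± 0.09 in KO thymus and 0.34 ± 0.08 in KO naive cells. In KO thymus Mycn (1.775 ± 0.48) was also higher, and Mlxip (-0.28 ± 0.08) and Mxd4 (-0.735 ± 0.22), which encode partners of Mlx and Max, were lower. In KO memory cells Mxd1, an antagonist of Myc, rose by 1.22 ± 0.285 and Mga by 0.21 ± 0.07. Counts of Mycn (median 2 and highest 55 over all libraries) and Mxd1 (median 17 and highest 46) were low, which limits their values. With mean log centring the Myc network gave 1 higher and 4 lower in thymus, 0 and 1 in naive and 1 and 3 in memory cells.

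**Figure D3:**
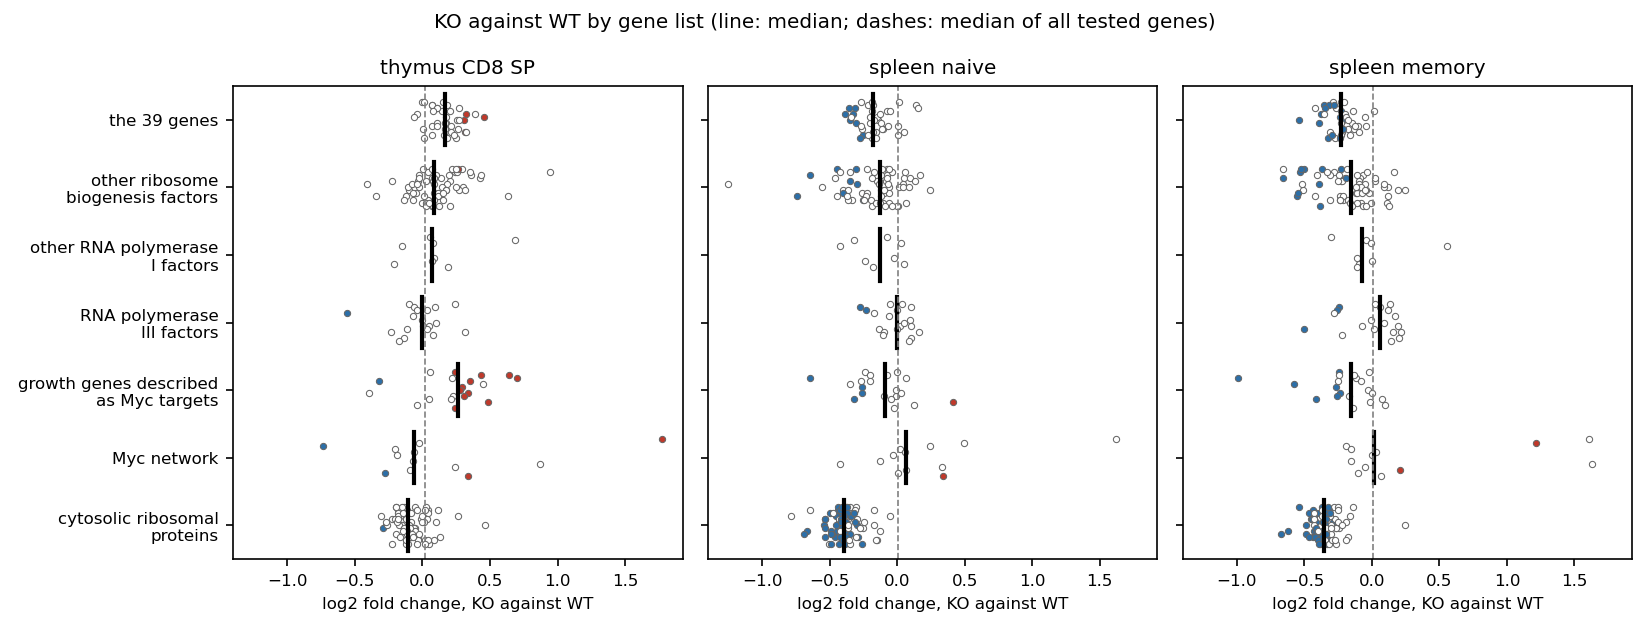
Log2 fold change of KO against WT libraries (horizontal axis) for the tested genes of 7 lists (rows) in 3 subsets; each point is a gene, red called higher and blue called lower, the black line is the list's median and the dashed line the median of all tested genes. Cytosolic ribosomal protein genes lie mostly left of the dashed line in naive and memory cells (49 and 46 of 78 called lower), and growth genes lie mostly to its right in thymus (11 of 20 called higher).

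Between naive and thymus cells more members were called in KO mice than in the other genotypes. In KO mice 1 of 39 was higher and 20 lower in naive than in thymus cells (22.4% and 21.7% of all tested genes), with a median of -0.26. In Het mice 5 were higher and 6 lower (19.8% and 19.7%), with a median of 0.00748 that was -0.0183 with relative log expression (RLE) scaling and -0.018 with a stricter filter on low counts. In WT mice 3 were higher and 2 lower (15.3% and 16.9%), with a median of 0.04. These splits moved with the scaling and the filter. In WT mice RLE scaling and the stricter filter each gave 1 higher and 3 lower, and mean log centring gave 6 higher and 1 lower, and in Het mice mean log centring gave 8 higher and 5 lower. Nop58 (-0.87 ± 0.08), Nap1l1 (-0.81 ± 0.09) and Nop56 (-0.63 ± 0.07) had the lowest adjusted p in KO mice, and Wdr12 (0.33 ± 0.10) was the gene that was higher. The interaction above tests this difference between KO and WT mice. Myc was called in no genotype, at -0.26 ± 0.18 in KO and 0.01 ± 0.19 in WT mice. Gar1 was among the 6 lower members in Het mice, and without Het thymus replicate 4 it was not called.

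In WT mice Nolc1 was at 50.9, 54.8, 45.7 and 50.35 CPM in naive and 66.6, 61.55 and 67.0 CPM in thymus libraries (-0.37 ± 0.09, adjusted p = 0.00117). Rrp12 went the other way, at 79.0, 72.6, 86.5 and 87.8 CPM in naive and 58.3, 63.9 and 67.0 CPM in thymus libraries (0.37 ± 0.10, adjusted p = 0.00432). Neither gene overlapped between the subsets. Nop56 was at 140.1, 151, 127 and 138 CPM in naive and 154.5, 171 and 160.5 CPM in thymus libraries (-0.22 ± 0.07, adjusted p = 0.0171), a call lost with mean log centring, without WT thymus replicate 2, without WT naive replicate 3 and with male libraries alone (highest adjusted p = 0.271). Npm1 (0.31 ± 0.12, adjusted p = 0.037) and Utp20 (0.30 ± 0.12, adjusted p = 0.0466) were the other members that were higher in naive cells, and Npm1 kept its call in 7 of 16 alternatives. Proliferation genes were lower in naive cells for 21 of 21 tested genes in each genotype. Of 78 ribosomal protein genes 47 were higher in naive than in thymus cells of KO mice (median 0.34), against 67 of WT mice (median 0.69). Without WT naive replicate 2 or 3 the WT count was 3 each, and without Het thymus replicate 1 the Het count was 7.

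Between memory and naive cells the calls were mostly higher. In KO mice 6 of 39 were higher and 1 lower in memory than in naive cells (8.69% and 8.61% of all tested genes), in Het mice 9 and 0 (8.31% and 8.57%), and in WT mice 7 and 0 (7.68% and 7.38%). Medians were 0.125 in KO, 0.17 in Het and 0.18 in WT mice. In WT mice Dkc1 was at 144, 129, 143 and 140.3 CPM in memory and 112, 107, 108 and 97.3 CPM in naive libraries, without overlap (0.39 ± 0.08, adjusted p = 0.00024). Ddx21 was at 209, 194, 209.8 and 209.7 CPM in memory and 189.9, 165, 163 and 158 CPM in naive libraries (0.28 ± 0.08, adjusted p = 0.00744). Fbl was at 43.8, 43.4, 42.0 and 41.2 CPM in memory and 37.0, 32.6, 34.8 and 33.4 CPM in naive libraries (0.31 ± 0.09, adjusted p = 0.0168). Each memory value of these genes lay above each naive value. Npm1 was called in KO (0.44 ± 0.11), Het (0.50 ± 0.11) and WT mice (0.35 ± 0.11), and so was Dkc1 (0.32 in KO, 0.36 in Het and 0.39 in WT mice). In WT mice the Npm1 call was lost with mean log centring, without naive replicate 2 or 3, without memory replicate 1 or 3 and with male libraries alone (highest adjusted p = 0.362). The Fbl call was lost without naive replicate 2 or 4 and with male libraries alone (highest adjusted p = 0.379), and the Ddx21 call with male libraries alone.

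Equally numbered memory and naive WT libraries deviated together (every correlation at least 0.206). With the replicate number as a block 1259 of all 10296 tested genes were called higher in WT memory cells, against 791 without it. Of the members 11 were then called higher. Myc was then among them, at 0.31 (adjusted p = 5.81e-05), and it was called too when the fit held the compared libraries alone (adjusted p = 0.0115). Without the block its memory against naive value was 0.30 ± 0.18 (adjusted p = 0.297). The WT count was 3 without naive replicate 2 or memory replicate 3, and 4 without naive replicate 4 or memory replicate 1, and the KO count was 3 without naive replicate 2. Wdr12 was the member that fell in memory against naive cells of KO mice (-0.48 ± 0.10), at 25.7, 29.6, 25.5 and 25.8 CPM in memory and 29.0, 41.4, 40.2 and 38.1 CPM in naive libraries. KO naive replicate 1 lay within the range of the memory libraries, and the other naive libraries lay above it.

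**Figure D4:**
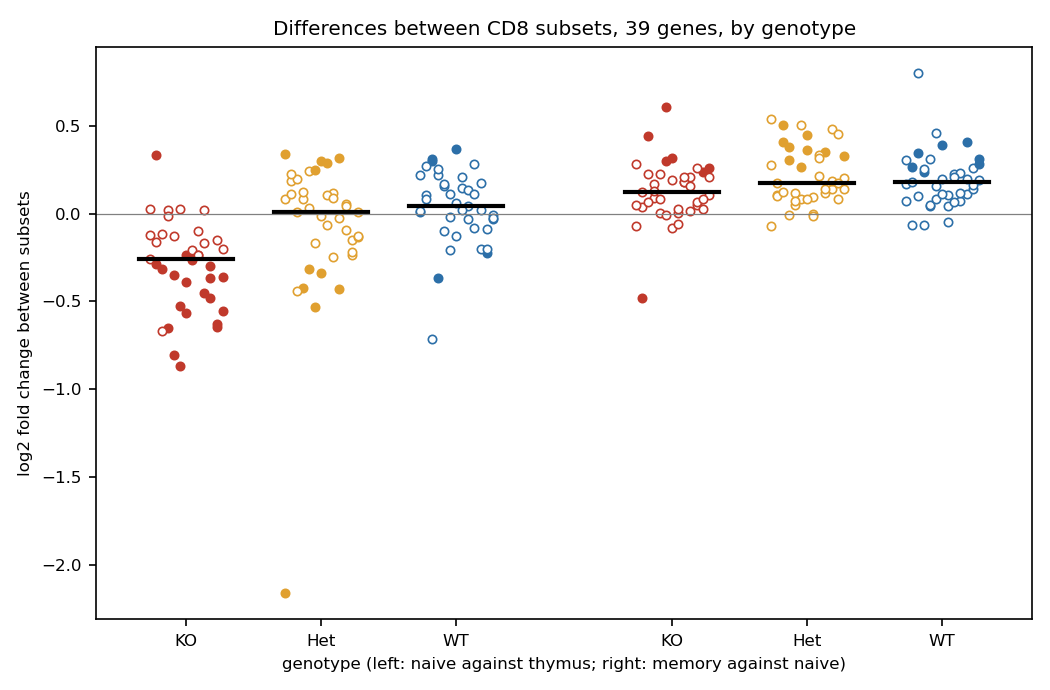
Log2 fold change between subsets (vertical axis) for the 39 genes (points, filled where called) in KO, Het and WT mice, with naive against thymus on the left, memory against naive on the right and black lines at the medians. In naive against thymus the KO median is -0.26, against 0.00748 in Het and 0.04 in WT mice, and in memory against naive the medians are 0.125 in KO, 0.17 in Het and 0.18 in WT mice.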

How the data were processed

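RNA of 35 libraries was prepared with a TruSeq Stranded mRNA kit and sequenced on a HiSeq2500, per the labels' protocols. The authors deposited raw read counts per Ensembl gene, and TopHat2 2.1.0 and HTSeq 0.9.1 with GRCm38 and mm10 are named in the submitters' processing notes. The annotation and strand setting of the counting are not given in the sources used here. Symbols and positions came from GENCODE M21, which named 52489 of 52636 identifiers. Genes were filtered with edgeR's filterByExpr, scaled by TMM and tested with edgeR 4.0.16 (quasi-likelihood, robust, 9 group means, 26 residual degrees of freedom, two-sided, R 4.3.3). TMM factors were 0.927 to 1.07, and depth limits precision at low counts. The code was tested on simulated data. Named libraries are those of Myc, Npm1 and Ncl and of the 3 called members with the lowest adjusted p in each comparison against WT or between WT subsets, and lists name up to 3 genes by the same order. The members and lists were chosen with earlier results of these data known. Alternatives were other scalings, filters, DESeq2 1.42.0, sex as a covariate, only the compared libraries, a replicate block and leaving out each library. Equally numbered libraries were taken as pairs where every correlation of their deviations from the group means was over 0.1, which held for KO against Het naive (lowest 0.144) and memory against naive WT (lowest 0.206). Whether replicates are separate animals is not stated in the labels, and the p-values rest on the scatter of these libraries, which may be technical. All within-group pairs differed beyond sampling noise (lowest chi-square per gene 3.92 over 51 pairs).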

Additional observations from a re-analysis of the deposited data

Results flagged for a closer look

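For 8 genes the KO effect, as KO minus WT on the log2 scale, differed between naive and thymus cells in edgeR's interaction test. The differences were -0.7068 for Nap1l1, -0.6569 for Nop58, -0.6271 for Npm1, -0.6069 for Rrp12, -0.524 for Fbl, -0.4744 for Rrp9, -0.4481 for Dkc1 and -0.4098 for Nop56.

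In 20 of 312 groups of 4 libraries (6.41%) 1 library stood apart from the others for a member, and chance gives about 1 in 20. Gar1 was at 21.47 CPM in Het thymus replicate 4, against 1.596 to 2.081 in the other libraries of its group. Among KO libraries, Polr1a was at 70.77 CPM in thymus replicate 1, Nop14 at 14.25 and Rrp12 at 81.43 CPM in thymus replicate 2, Nop58 at 117.5 and Rrp9 at 54.32 CPM in naive replicate 2, Ncl at 632.8 and Fbl at 32.79 CPM in naive replicate 3, and Tsr1 at 5.061 and Wdr12 at 29.62 CPM in memory replicate 2. Among Het libraries, Rrp9 was at 80.42 CPM in naive replicate 2, Grwd1 at 9.1 CPM in naive replicate 3, Nop56 at 158.4 CPM in naive replicate 4, Nolc1 at 52.91 CPM in memory replicate 1, Ncl at 692.6 CPM in memory replicate 2 and Nop14 at 19.21 CPM in memory replicate 4. Among WT memory libraries, Myc was at 105.0 CPM in replicate 1, Ddx21 at 193.6 CPM in replicate 2, Grwd1 at 12.62 CPM in replicate 3 and Nop2 at 15.59 CPM in replicate 4.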

How the results depend on the processing

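The count of members called stayed within 1.5 times of the reported one in all 17 comparisons with RLE scaling, a stricter filter and sex as a covariate. No named gene's call changed direction, but the median of the 39 did for naive against thymus Het (0.00748, against -0.0183 to -0.00393 with RLE scaling, DESeq2, the stricter filter, no filter and only the compared libraries) and for KO against Het thymus (0.106, against -0.00607 with mean log centring), and the WT naive against thymus split of 3 higher and 2 lower turned to 1 and 3 under RLE scaling and the stricter filter. The cause of the shifts that follow was not tested, except that male libraries alone leave fewer samples. Mean log centring gave 1, 22 and 24 for KO against WT in thymus, naive and memory cells, and 2, 19 and 28 for KO against Het. Under it the counts over all tested genes moved too, as given above. With no filter on low counts the counts were 5 for KO against WT naive, 2 for KO against Het thymus, 11 for KO against Het memory and 4 for memory against naive WT. With only the compared libraries they were 1 for KO against Het thymus and 6 for naive against thymus Het. DESeq2 gave 13 for the KO effect in naive against thymus. The replicate block gave 22 for KO against WT memory, 1 for KO against Het thymus and 11 for memory against naive WT. It gave 13 for the KO effect in naive against thymus, and 11 against 8 for KO against Het naive. Equally numbered libraries met the limit of 0.1 for pairs in that last comparison, and also between memory and naive WT libraries. They missed it in KO against WT memory (correlations of -0.0331 to 0.272) and in KO against Het thymus (0.0476 to 0.236). Missing the limit does not show that such libraries are unrelated. Male libraries alone, chosen after seeing the data, gave 2, 3 and 2 for KO against WT in thymus, naive and memory cells, 3, 3 and 6 for KO against Het, 2 for naive against thymus WT, 1 and 3 for memory against naive WT and Het, and 3 for the KO effect in naive against thymus. Leaving out each library in turn gave 2 to 5, 5 to 8 and 8 to 12 for KO against WT, 2 to 8, 5 to 8 and 11 to 16 for KO against Het, 0 for Het against WT, 18 to 23, 7 to 13 and 3 to 5 for naive against thymus in KO, Het and WT, 3 to 7, 8 to 11 and 3 to 5 for memory against naive in the same genotypes, and 8 to 11 and 0 to 1 for the KO effects. Nop58 in thymus, Nap1l1 and Rrp12 in naive and Rrp12 and Wdr43 in memory cells kept their KO against WT call in every alternative run. Low counts limit Gar1, with a median count of 19, and Mycn and Mxd1 of the Myc network, with medians of 2 and 17.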
